A study of Bos taurus with 14 samples.

Results

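Myostatin, the FOXO factors and a set of muscle atrophy genes were followed in *M. longissimus dorsi* (LD) muscle of beef heifers reared outdoors on pasture or indoors on concentrate. The members were all probe sets (groups of short probes that read 1 transcript on the array) whose only gene symbol in the array annotation was *MSTN*, *FBXO32*, *TRIM63*, *FOXO1*, *FOXO3*, *FOXO4*, *GABARAPL1*, *BNIP3*, *CTSL* or *SESN1*. These were 14 of the 24016 non-control probe sets, and they read 7 of the 10 genes, among 9155 genes named by the annotation. The probe sets of a gene are numbered here in the order of their identifiers, which the plots give. No probe set carried the symbol of *TRIM63*, *FOXO1* or *FOXO3* in the annotation used, so these genes were not analysed here. RNA came from 7 outdoor/pasture-fed and 7 indoor/concentrate-fed Charolais × Limousin crossbred heifers, with 1 Affymetrix Bovine array per animal. Animals were allocated at random and kept under their regimen for a year, on a sward mainly of ryegrass, meadow grass and white clover outdoors, or housed throughout with a barley and beet pulp concentrate and straw indoors. The concentrate allowance was set so that the housed heifers would grow about as fast as those at pasture. Each regimen was run in several management groups, which the labels do not give, so the tests treat each animal as independent.

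Myostatin, encoded by *MSTN*, is a secreted ligand of the TGF-beta family that limits muscle mass, and loss-of-function alleles cause double muscling in cattle. It signals through activin receptors and SMAD proteins, and in rodent and human muscle cells it lowers AKT activity. AKT keeps the FOXO transcription factors out of the nucleus. When AKT activity falls, as in fasting or disuse, FOXO factors enter the nucleus and raise the transcription of ubiquitin ligases and autophagy genes, the 2 main routes of protein breakdown in muscle.

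The deposited values are log2 expression, normalised between arrays by the authors, with array medians between 6.77 and 6.84. A level of one probe set cannot be set against that of another, and only differences of a probe set between animals are read here. Of all probe sets, 59.9% were nearly constant over the arrays. The 9623 whose standard deviation (SD) between arrays exceeded 0.01 are called the varying probe sets. Of the members, 13 varied. The markers of muscle fibres were read through 13 varying probe sets of 5 of the 8 measured genes. Their list mean was 11.48 ± 0.083 in outdoor/pasture-fed and 11.56 ± 0.140 in indoor/concentrate-fed muscle (SD, n = 7 each). Correlations between arrays lay between 0.952 and 0.990 over the varying probe sets.

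No difference between outdoor/pasture-fed and indoor/concentrate-fed muscle was detectable for *MSTN*, *FOXO4* or the FOXO targets. With limma (linear models with moderated variances) and Benjamini-Hochberg adjustment over all probe sets, 0 of 14 passed the threshold of 0.05, against a background of 0.0167% of all probe sets (0.0125% higher and 0.00416% lower outdoors). Among the varying probe sets alone, 0 of 13 passed, against 0.343%. The fit over all probe sets includes the nearly constant ones and is the stricter, with 4 probe sets called against 33 among the varying ones. Adjusted p-values of single probe sets below come from this stricter fit unless stated. Among the varying probe sets the smallest of a member was 0.271 (limma adjusted p, *GABARAPL1* probe set 2). At an unadjusted p under 0.05 the count was again 0 of 13, while 19.9% of the varying probe sets lay below that value. The groups overlapped for each of the 13, where 0.811% of the varying probe sets had groups apart, and the means were higher outdoors for 6 and lower for 7. Their median difference was -0.04 on the log2 scale, against -0.01 over all varying probe sets, of which 47.5% had the higher mean outdoors. The share of the variance over the 14 animals that lay between the groups had a median of 8.21% among the members and 9.91% among all varying probe sets. The plot of values by animal shows this overlap for each probe set.

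**Figure D1:**
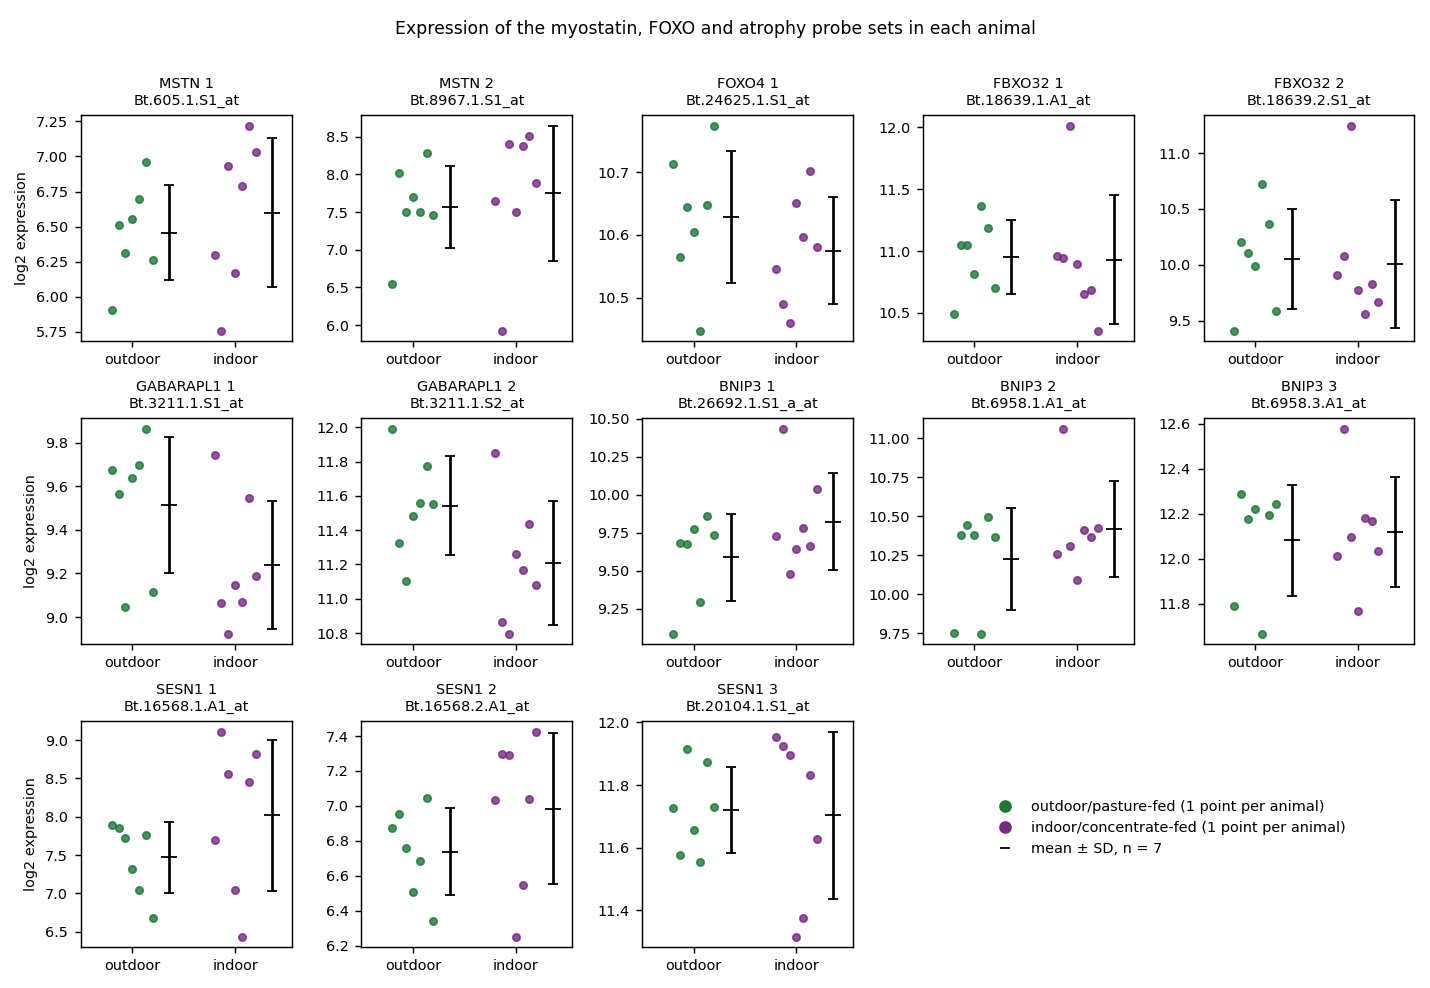
Log2 expression of the 13 varying member probe sets in each animal (y axis, scale set for each panel), for outdoor/pasture-fed (left) and indoor/concentrate-fed (right) heifers, with 1 point per animal in order of replicate number and the mean ± SD beside it (n = 7 each). The groups overlap in every panel, and single indoor/concentrate-fed animals stand apart in *FBXO32* (12.01 and 11.25) and *BNIP3* (11.06).

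The ligand *MSTN* was read by 2 probe sets. On probe set 2 the lowest, median and highest log2 values were 6.54, 7.50 and 8.28 in outdoor/pasture-fed muscle, and 5.93, 7.89 and 8.51 in indoor/concentrate-fed muscle. Both the lowest and the highest animal were thus indoors, and the outdoor animals lay between them. The difference was -0.18 (SE 0.39, 95% interval -1.04 to 0.67, limma adjusted p = 0.914). On probe set 1 the values were 5.91, 6.51 and 6.96 outdoors and 5.76, 6.79 and 7.22 indoors, with a difference of -0.14 (SE 0.24, 95% interval -0.66 to 0.37, limma adjusted p = 0.876). Here 1 of the 7 outdoor animals lay above the indoor median. As a ratio of outdoor over indoor, the intervals ran from 0.487 to 1.595 and from 0.634 to 1.29. Leaving out indoor/concentrate-fed replicate 2, the lowest animal, moved the difference on probe set 2 to -0.49, and leaving out outdoor/pasture-fed replicate 1 moved it to -0.01, with neither passing the test.

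*FOXO4*, a FOXO transcription factor that AKT phosphorylates and that acts in the nucleus, was the only FOXO factor analysed. Its values were 10.45, 10.64 and 10.77 in outdoor/pasture-fed and 10.46, 10.58 and 10.70 in indoor/concentrate-fed muscle (lowest, median and highest). All 14 animals lay within a 1.25-fold range, the narrowest of the varying members. The difference was 0.05 (SE 0.05, 95% interval -0.06 to 0.16, limma adjusted p = 0.758). The array reads its transcript and not its phosphorylation or location, through which AKT acts on it.

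*FBXO32* encodes atrogin-1, the F-box subunit of a ubiquitin ligase induced in muscle wasting. On probe set 2 it had values of 9.41, 10.10 and 10.72 in outdoor/pasture-fed and 9.56, 9.83 and 11.25 in indoor/concentrate-fed muscle. On probe set 1 the values were 10.49, 11.05 and 11.36 outdoors and 10.36, 10.90 and 12.01 indoors. On both, the highest of all 14 animals was indoor/concentrate-fed replicate 3, at 11.25 and 12.01, with the next indoor animal at 10.08 and 10.96. The differences were 0.05 (SE 0.27, 95% interval -0.55 to 0.64, limma adjusted p = 0.971) and 0.02 (SE 0.23, 95% interval -0.47 to 0.51, limma adjusted p = 0.989). Without that animal they were 0.25 and 0.20, and leaving out other single animals turned them as low as -0.07 and -0.08, so no direction could be read for *FBXO32*.

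*GABARAPL1*, a ubiquitin-like protein of the Atg8 family that is attached to autophagosome membranes, had the smallest p-values of the members. Its values on probe set 2 were 11.11, 11.55 and 11.99 in outdoor/pasture-fed and 10.80, 11.17 and 11.85 in indoor/concentrate-fed muscle. On probe set 1 they were 9.05, 9.64 and 9.87 outdoors and 8.92, 9.15 and 9.74 indoors. On probe set 2, 6 of 7 outdoor animals lay above the indoor median, and 5 of 7 did so on probe set 1. The differences were 0.33 (SE 0.17, 95% interval -0.04 to 0.71, limma adjusted p = 0.496) and 0.27 (SE 0.16, 95% interval -0.07 to 0.62, limma adjusted p = 0.552), neither of which passed. The positive sign was kept under every alternative run, with differences between 0.26 and 0.44 on probe set 2 and between 0.22 and 0.36 on probe set 1 when single animals were left out.

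*BNIP3*, a mitochondrial outer membrane protein that serves as a receptor for mitophagy, was read by 3 probe sets. On probe set 1 its values were 9.09, 9.68 and 9.86 in outdoor/pasture-fed and 9.48, 9.73 and 10.43 in indoor/concentrate-fed muscle. The difference was -0.24 (SE 0.16, 95% interval -0.58 to 0.11, limma adjusted p = 0.627). The lowest pair of the 14 animals was outdoor/pasture-fed replicates 1 and 5 (9.09 and 9.29), and the highest was indoor/concentrate-fed replicate 2. On probe set 2 and probe set 3 the differences were -0.19 (SE 0.17) and -0.04 (SE 0.13), with limma adjusted p-values of 0.728 and 0.950. The medians went the other way, at 10.38 outdoors against 10.37 indoors and at 12.19 against 12.10. On both, 5 of 7 outdoor animals lay above the indoor median, against 3 of 7 on probe set 1. Without indoor/concentrate-fed replicate 2 the 3 differences were -0.13, -0.09 and 0.04.

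The *CTSL* probe set, which reads the lysosomal protease cathepsin L, stood at 5.65 on every array. Its SD over the 14 arrays was 1.04e-05, so the summarised value carried no information on differences between animals, and its limma adjusted p of 0.672 is no result about *CTSL*.

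*SESN1* encodes sestrin 1, a stress-induced protein that restrains mTORC1 and growth signalling. Its probe set 1 had values of 6.67, 7.73 and 7.89 in outdoor/pasture-fed and 6.44, 8.45 and 9.11 in indoor/concentrate-fed muscle. None of the 7 outdoor animals lay above the indoor median, but 2 indoor animals, replicates 4 and 5 (7.05 and 6.44), lay in the lower part of the outdoor range or below it. The difference was -0.55 (SE 0.41, 95% interval -1.44 to 0.34, limma adjusted p = 0.666), the largest in size of the members. It moved to -0.81 without indoor/concentrate-fed replicate 5 and to -0.37 without indoor/concentrate-fed replicate 2. On probe set 2 the values were 6.34, 6.76 and 7.05 outdoors and 6.25, 7.04 and 7.43 indoors, a difference of -0.25 (SE 0.19, limma adjusted p = 0.674). Probe set 3 had a difference of 0.02 (SE 0.11, limma adjusted p = 0.976) and so did not share the sign of the other two.

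**Figure D2:**
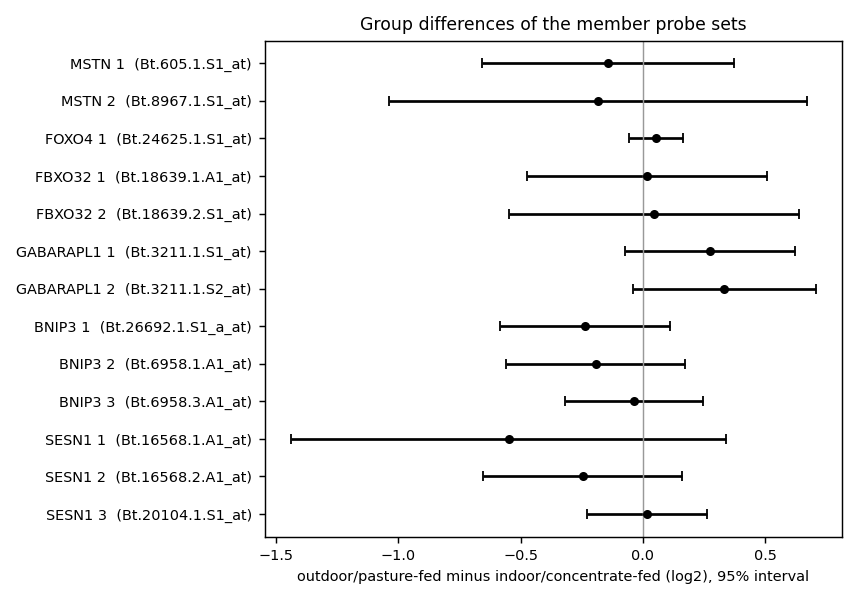
Difference in log2 expression, outdoor/pasture-fed minus indoor/concentrate-fed (x axis), of the 13 varying member probe sets (rows), with the 95% interval from limma as bars (n = 7 each). Every interval includes 0, from the *GABARAPL1* probe set 2 at 0.33 to the *SESN1* probe set 1 at -0.55.

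Animals within a group differed widely in most of the members. Over the 14 arrays, 12 of the 13 varying members had an SD above the median of all varying probe sets, and the median SD was 0.357 among the members against 0.177 among all varying probe sets. The *SESN1* probe set 1 had a larger SD than 99.0% of the varying probe sets, and the *MSTN* probe set 2 than 98.4%. Indoors, the highest animal exceeded the lowest 6.38-fold on this *SESN1* probe set and 6.01-fold on this *MSTN* probe set, against 2.33-fold and 3.34-fold outdoors. The lowest indoor animal on this *MSTN* probe set, replicate 2, stood at 5.93, with the next at 7.50. *FOXO4* was the exception, with an SD larger than that of 14.6% of the varying probe sets.

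The SD was larger indoors than outdoors for 9 of the 13, with a median ratio of indoor over outdoor SD of 1.27. Among all varying probe sets 59.9% had the larger SD indoors, with a median ratio of 1.13. The ratio was 2.11, 1.74 and 1.94 on the 3 probe sets of *SESN1*, 1.58 and 1.63 on those of *MSTN*, and 1.75 and 1.27 on those of *FBXO32*. *GABARAPL1* (0.945 and 1.25) and *BNIP3* (1.12, 0.933 and 0.991) had ratios nearer to 1. These ratios are given as a description, since groups of 7 animals estimate an SD loosely. Single animals also set much of the indoor SD, replicate 3 for *FBXO32* and replicate 2 for *MSTN* probe set 2.

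**Figure D3:**
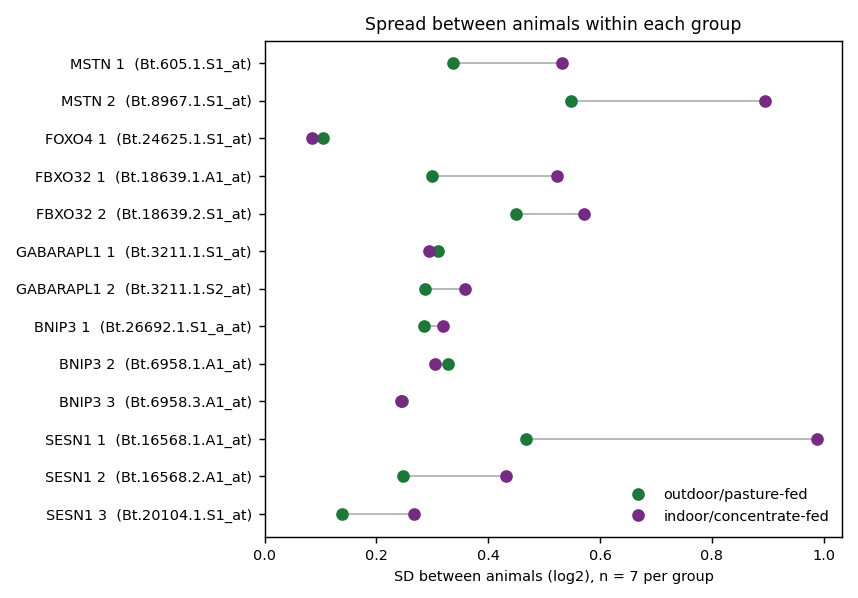
SD of log2 expression between the 7 animals of each group (x axis) for the 13 varying member probe sets (rows), with outdoor/pasture-fed in green and indoor/concentrate-fed in purple, joined by a grey line. *SESN1*, *MSTN* and *FBXO32* have the larger SD indoors, up to 0.988 against 0.468 on the *SESN1* probe set 1.

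Whether the FOXO targets *FBXO32*, *GABARAPL1*, *BNIP3* and *SESN1* varied together between animals was asked after the group means were removed, so that Pearson's r describes animals within their groups (n = 14). Probe sets of the same gene served as the comparison and moved together, with r between 0.64 and 0.95 for all 9 such pairs. Over the 37 pairs of target probe sets from different genes the median r was 0.03, with values between -0.49 and 0.42. A positive r was found for 20 of the 37 (54.1%), against 51.9% of all pairs of varying probe sets from different genes. None of the 37 exceeded 0.5 or fell below -0.5, whereas 8.89% and 6.72% of all such pairs did. No target pair had a permutation p under 0.05 before adjustment. A shared rise and fall of the measured targets was thus not detectable with this number of animals, and 20 of the 37 pairs had opposite signs in the 2 groups.

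The gene pairs differed in sign. All 9 probe set pairs of *BNIP3* and *SESN1* were positive, with r between 0.21 and 0.42, and all 6 of *FBXO32* and *SESN1* were positive, between 0.12 and 0.37. All 6 pairs of *GABARAPL1* and *BNIP3* were negative, between -0.49 and -0.18, and all 4 of *FBXO32* and *GABARAPL1*, between -0.42 and -0.05. Probe sets of 1 gene repeat each other, so these counts hold few independent values. Single animals also set part of the signs. Without indoor/concentrate-fed replicate 3, r of *FBXO32* with *GABARAPL1* probe set 1 was 0.22 and 0.31, and r of *FBXO32* probe set 1 with *SESN1* probe sets 1 and 2 was -0.09 and -0.03. For *BNIP3* and *SESN1*, 2 of the 9 pairs came to -0.01 without 1 indoor animal (replicate 2 or replicate 4). The 6 pairs of *GABARAPL1* and *BNIP3* stayed negative whichever animal was left out, between -0.60 and -0.08. For *BNIP3* and *SESN1* the median r was 0.06 outdoors and 0.50 indoors, a difference that was not tested.

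By animal, the mean deviations of a gene's probe sets from the group mean gave the same picture. Outdoor/pasture-fed replicate 6 was above its group mean for all 4 target genes and indoor/concentrate-fed replicate 4 for none. The other 12 animals were above it for 1 to 3. Indoor/concentrate-fed replicate 3, the animal highest in *FBXO32* (a deviation of 1.16), deviated by 0.35 in *SESN1* but by -0.16 in *BNIP3* and -0.36 in *GABARAPL1*. Indoor/concentrate-fed replicate 2, highest in *BNIP3* (0.57) and high in *SESN1* (0.54), was lowest in *MSTN* (-1.33).

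**Figure D4:**
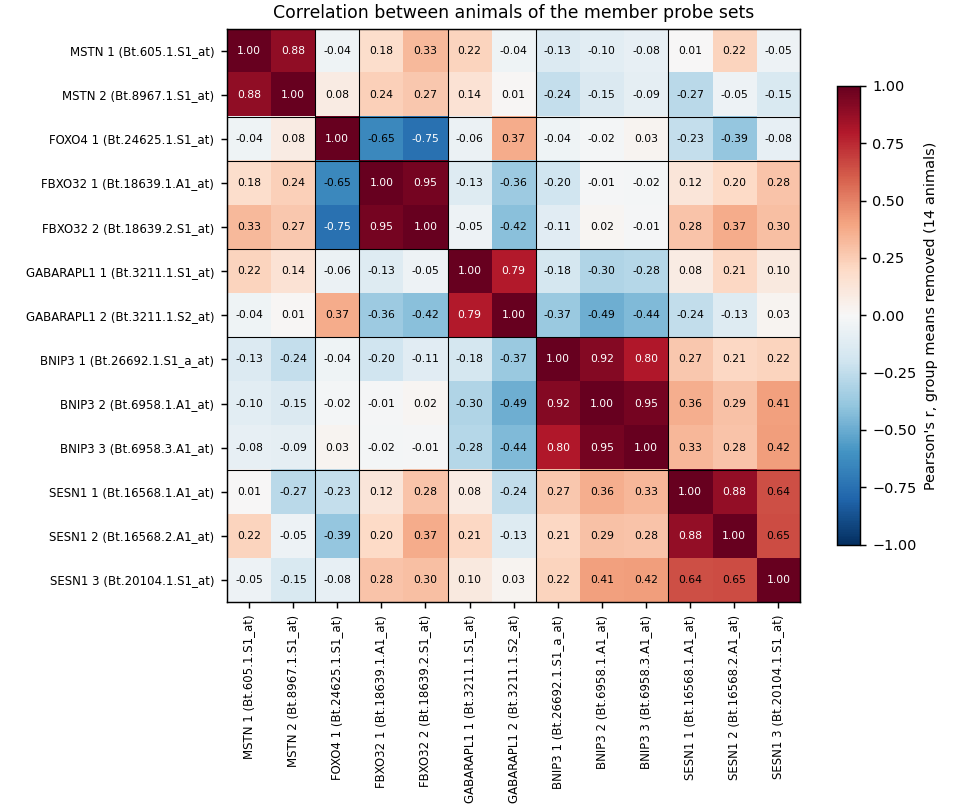
Pearson's r (colour and number) between the 13 varying member probe sets over 14 animals after removal of the group means, with black lines between genes. Blocks of 1 gene on the diagonal are red (0.64 to 0.95), the blocks between target genes are pale (-0.49 to 0.42), and *FOXO4* with *FBXO32* is blue (-0.65 and -0.75).

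Of all 69 pairs of member probe sets from different genes, 2 had an r outside -0.5 to 0.5 (2.9%, against 15.6% of all pairs of varying probe sets from different genes), and both joined *FOXO4* and *FBXO32*, with negative r. With the *FBXO32* probe set 2, r was -0.75 (permutation p = 0.0016, adjusted over the 69 pairs 0.110, n = 14) and Spearman's rho was -0.78 (permutation p = 0.00172, adjusted 0.119, n = 14). With probe set 1, r was -0.65 (permutation p = 0.00832, adjusted 0.287) and rho -0.66 (permutation p = 0.0142, adjusted 0.491). Neither passed the adjustment. The sign was negative in both groups. On *FBXO32* probe set 2, r was -0.86 in the 7 outdoor/pasture-fed animals (exact permutation p = 0.0159, adjusted 0.387). It was -0.68 in the 7 indoor/concentrate-fed animals (exact permutation p = 0.0746, adjusted 0.819). On probe set 1 it was -0.78 outdoors and -0.63 indoors (exact permutation p = 0.0415 and 0.121, adjusted 0.564 and 0.819). Over both groups, without the 2 animals farthest from the *FOXO4* median, r was -0.67 on probe set 2 and -0.62 on probe set 1.

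The 2 animals with the highest *FBXO32*, indoor/concentrate-fed replicate 3 and outdoor/pasture-fed replicate 5, had the lowest *FOXO4* of their groups. Among indoor animals r moved to -0.46 on *FBXO32* probe set 2 and to -0.27 on probe set 1 without replicate 3. Some probe sets of slow-fibre genes ran opposite to *FBXO32*. On 1 of the 3 varying probe sets of the slow myosin *MYH7*, the group-centred r was -0.87 and -0.84 with *FBXO32* and 0.52 with *FOXO4*. Without indoor/concentrate-fed replicate 3 these were -0.60, -0.57 and 0.42. On the other two *MYH7* probe sets r lay between -0.32 and -0.19 with *FBXO32* and was 0.34 and 0.10 with *FOXO4*. The slow troponin *TNNT1* had an r of -0.77 and -0.67 with *FBXO32* and of 0.36 with *FOXO4*. Without indoor/concentrate-fed replicate 3 these were -0.24, less than 0.01 in size and 0.05. By group, r of *TNNT1* with *FBXO32* was 0.22 and 0.26 outdoors and -0.95 and -0.94 indoors. With *FOXO4* it was -0.35 outdoors and 0.69 indoors. Marker lists of other cells were also set beside this pair of genes, without a test. The satellite cell marker (*MYF5*, the only gene of its list with a probe set) had a group-centred r of -0.68 with *FOXO4* and of 0.29 and 0.48 with *FBXO32*. The fibroblast list had -0.49 with *FOXO4* and 0.49 and 0.45 with *FBXO32*, and the leukocyte list had -0.29 with *FOXO4* and 0.58 and 0.45 with *FBXO32*. Without outdoor/pasture-fed replicate 5 the r of *FOXO4* was -0.46 with the satellite cell marker, -0.14 with the fibroblast list and near 0 with the leukocyte list. *FOXO4* also had an r of 0.69 with the 3′ minus 5′ difference of the actin controls, which were constant on the arrays. An r of this size can thus arise from values that hold no measurable difference. The part of these genes and lists in the relation was not tested. In muscle tissue as a whole, fewer cells of a type and less RNA per cell cannot be told apart.

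*MSTN* and *BNIP3* had r-values of opposite sign in the 2 groups. Opposite signs were common, in 40 of all 69 pairs of member probe sets from different genes. All 6 of their pairs were positive in outdoor/pasture-fed and negative in indoor/concentrate-fed muscle, with median r of 0.59 and -0.53. For *MSTN* probe set 2 with *BNIP3* probe set 1, r was 0.83 outdoors (exact permutation p = 0.0173, adjusted 0.387, n = 7). It was -0.82 indoors (exact permutation p = 0.0458, adjusted 0.819, n = 7). Neither passed the adjustment, and this pair was chosen from many. Over both groups r was -0.24, with a permutation p of 0.426. Single animals set these values. Without indoor/concentrate-fed replicate 2, lowest in *MSTN* and highest in *BNIP3*, the indoor r was -0.27, and on the other two *BNIP3* probe sets it turned to 0.67 and 0.88. Without outdoor/pasture-fed replicate 1 the outdoor r was 0.53, and the 3 outdoor r-values of *MSTN* probe set 1 (0.56, 0.37 and 0.19) came to 0.01, -0.17 and -0.31, so their positive sign was lost. The difference between the groups was not tested.

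*MSTN* and *FBXO32* had a median r of 0.75 over their 4 pairs outdoors and of 0.08 indoors. For *MSTN* probe set 1 with *FBXO32* probe set 2, r was 0.84 outdoors and 0.07 indoors. Without indoor/concentrate-fed replicate 3 the indoor r was -0.67, and leaving out single outdoor animals kept it between 0.71 and 0.88 outdoors. On *MSTN* probe set 2 the outdoor r of 0.67 and 0.64 came to 0.26 on both *FBXO32* probe sets without outdoor/pasture-fed replicate 1. This difference between the groups was not tested either. Over both groups the 4 pairs had r between 0.18 and 0.33.

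**Figure D5:**
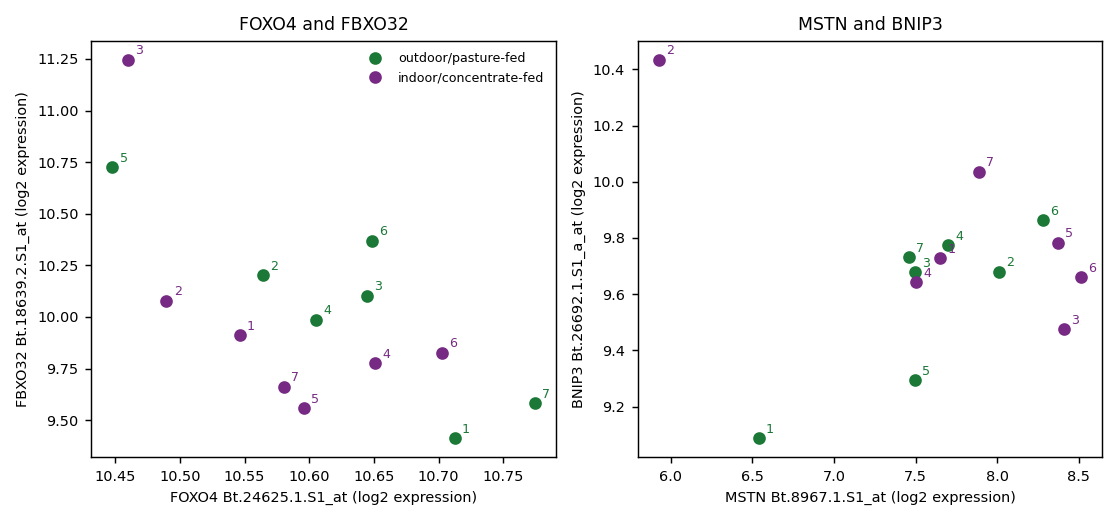
Left, *FBXO32* (probe set 2, y axis) against *FOXO4* (x axis), and right, *BNIP3* (probe set 1, y axis) against *MSTN* (probe set 2, x axis), in log2 expression, with 1 point per animal and its replicate number, outdoor/pasture-fed in green and indoor/concentrate-fed in purple. On the left both groups slope downwards (r of -0.86 outdoors and -0.68 indoors), and on the right they slope in opposite directions (0.83 and -0.82), with indoor/concentrate-fed replicate 2 and outdoor/pasture-fed replicate 1 at the ends.

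Of 5935 varying probe sets with 1 gene symbol, those most like the *MSTN* probe set 2 between animals, by r after removal of the group means (n = 14), were *SMIM19* (0.92), *MYOZ3* (0.85), *DISP1* (0.82), *UBE2A* (0.82) and *MOSPD1* (0.80). *MYOZ3* encodes a calsarcin of the sarcomeric Z-disc, and *UBE2A* a ubiquitin-conjugating enzyme. *MYOZ3* had a group difference of -0.59 (SE 0.16, limma adjusted p = 0.226), and the other 4 lay between -0.05 and 0.01. The 5 most like the *FBXO32* probe set 2 were *TBL1XR1* (0.86), *COL6A1* (0.85), *F13A1* (0.83), *IDH1* (0.83) and *TOR3A* (0.82). *COL6A1* encodes a chain of collagen VI and *F13A1* the A subunit of coagulation factor XIII. Each gene was counted once, at its most similar probe set. These r-values were the highest found in that search, on 14 animals, and are given as a description without a test.

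The wider pathway was read through 6 lists with 102 probe sets of 63 genes, of which 53 varied. None of the 102 passed the adjusted threshold, over all probe sets or among the varying ones. At an unadjusted p under 0.05, 3 of the 53 were higher and 3 lower outdoors, against 9.23% and 10.7% of all varying probe sets. The median difference of the 53 was 0.01, and 28 had the higher mean outdoors.

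The list of myostatin ligands, inhibitors, receptors and SMADs had 10 probe sets, of which 3 varied. *SMAD3*, which carries the myostatin signal to the nucleus, averaged 7.12 ± 0.34 in outdoor/pasture-fed and 7.54 ± 0.29 in indoor/concentrate-fed muscle (SD, n = 7 each). The difference was -0.42 (SE 0.17, limma adjusted p = 0.373) and did not pass. The inhibitor follistatin (*FST*) differed by 0.02 (SE 0.13) and the receptor *ACVR2A* by less than 0.01. The next smallest p in this list belonged to a *SMAD2* probe set that was constant on all arrays (limma adjusted p = 0.677).

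In the list of insulin and AKT control of FOXO, with 25 probe sets and 9 varying, the smallest p-values belonged to constant probe sets of *IGF1* and *PIK3CA* (limma adjusted p = 0.449 and 0.507), which hold no measurable difference. Among those that varied, *PIK3R1*, a regulatory subunit of phosphoinositide 3-kinase, differed by 0.24 (SE 0.19, limma adjusted p = 0.689), and the insulin receptor *INSR* by -0.08 (SE 0.06, limma adjusted p = 0.707). Of the 9, 3 had the higher mean outdoors.

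Among other ubiquitin ligases of muscle atrophy, 7 of 11 probe sets varied and 5 of them had the higher mean outdoors. The smallest p-values again belonged to constant probe sets, of *TRAF6* and *STUB1* (limma adjusted p = 0.321 and 0.440). Among those that varied, *FBXO40*, a muscle F-box protein, differed by 0.30 (SE 0.20, limma adjusted p = 0.618), and *MDM2*, the ligase of p53, by 0.09 (SE 0.05, limma adjusted p = 0.555).

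The autophagy and lysosome list had 32 probe sets, 15 of them varying, with 7 higher and 8 lower outdoors by mean. *ATG5*, needed to attach Atg8 proteins to membranes, averaged 7.65 ± 0.099 in outdoor/pasture-fed and 7.80 ± 0.071 in indoor/concentrate-fed muscle (SD, n = 7 each; difference -0.15, SE 0.05, limma adjusted p = 0.25). *MAP1LC3B*, which encodes LC3B, an Atg8 protein like *GABARAPL1*, averaged 12.34 ± 0.041 outdoors and 12.19 ± 0.132 indoors (difference 0.14, SE 0.05, limma adjusted p = 0.318). *TFEB*, a transcription factor for lysosomal genes, differed by -0.17 (SE 0.07, limma adjusted p = 0.372). None of these passed, and *MAP1LC3B* and *ATG5*, parts of the same conjugation route, had opposite signs.

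Among other FOXO-responsive genes, 16 of 20 probe sets varied and 10 of them had the higher mean outdoors. *EIF4EBP1* encodes 4E-BP1, a repressor of cap-dependent translation that FOXO raises in fruit flies. It averaged 8.58 ± 0.31 in outdoor/pasture-fed and 8.01 ± 0.20 in indoor/concentrate-fed muscle (SD, n = 7 each), a difference of 0.57 (SE 0.14, limma adjusted p = 0.195, and 0.0692 among the varying probe sets). The study picked this gene on these arrays, so its direction here is not independent evidence. The paper also reported that this gene differed between the regimens by quantitative PCR. That was in a larger set of heifers that included those on the arrays, and those measurements were not analysed here. *SOD2*, the mitochondrial superoxide dismutase, differed by 0.25 (SE 0.10, limma adjusted p = 0.358). The 3 probe sets of *PDK4*, a kinase that inhibits pyruvate dehydrogenase and rises in fasted muscle, differed by 0.02, 0.12 and 0.06, with SEs of 0.05, 0.10 and 0.07.

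Glucocorticoids induce *FBXO32* in rodent muscle, and 3 of the 4 probe sets of the glucocorticoid receptor and its partners varied. The chaperone *FKBP5*, itself induced by glucocorticoids, differed by 0.17 (SE 0.18, limma adjusted p = 0.778). The receptor *NR3C1* differed by -0.02 (SE 0.06) on its varying probe set, and another probe set of it was constant (limma adjusted p = 0.635).

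Of 8 lists of cell type markers, 1 moved with the feeding groups. The endothelial list had 6 varying probe sets of 5 genes (*PECAM1*, *CDH5*, *KDR*, *TEK* and *TIE1*), averaged within each gene and then over the genes. Its mean lay between 8.83 and 9.23 in outdoor/pasture-fed and between 8.29 and 8.82 in indoor/concentrate-fed muscle, without overlap. The difference was 0.41 (exact permutation p = 0.000583, the smallest that 7 against 7 animals allow, adjusted over the 8 lists 0.00466). All 6 probe sets were higher outdoors with an unadjusted limma p under 0.05, and 0 passed after adjustment. *VWF* was constant. Within groups, this list mean had an r of -0.42 and -0.48 with *FBXO32*, of -0.33 to -0.45 with *BNIP3*, of -0.40 to -0.46 with *SESN1*, of -0.33 and -0.36 with *MSTN*, of -0.04 and 0.19 with *GABARAPL1* and of 0.21 with *FOXO4* (n = 14). Its part in the member values was not tested. The muscle fibre list differed by -0.08 (exact permutation p = 0.229) and had an r of -0.55 and -0.70 with *MSTN*, which was -0.16 and -0.20 without indoor/concentrate-fed replicate 2. The other 6 lists had exact p-values between 0.0822 and 0.981.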

How the data were processed

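RNA from LD muscle of 14 heifers, 7 per feeding regimen, was hybridised to Affymetrix Bovine arrays, 1 per animal. The deposited values are log2 expression, which the authors quantile normalised and summarised with FARMS, a factor analysis of the probes of each set. Versions of the software used for these array steps are not given in the sources used here. FARMS returns a near-constant value where the probes of a set do not vary together, so 14393 of 24016 probe sets did not vary (SD of 0.01 or less), and the filter of the authors for informative probe sets was not repeated because it needs probe-level data. Tests left out 112 control probe sets. The number of arrays limits the precision.

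Gene names came from the platform annotation, in which 13292 probe sets have 1 symbol, 86 several and 10638 none. All 7 measured member genes matched RefSeq (ARS-UCD2.0) by name, and no symbol needed updating. Members and gene lists were chosen with earlier results of these data known.

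Groups, taken from the sample titles, were compared (outdoor minus indoor) with limma 3.58.1 (lmFit, eBayes; R 4.3.3) over all 24016 probe sets, and p-values were adjusted by the Benjamini-Hochberg method with 0.05 as the threshold. The script was tested on simulated data. Single list means were compared by two-sided exact permutation over the 3432 assignments of arrays. Correlations used values with group means removed and two-sided tests of 100000 permutations within groups, adjusted over 69 pairs, or exact permutation within a group of 7 (Python 3.11.15, NumPy 2.4.6, SciPy 1.17.1). All member probe sets are named. Of each pathway list, genes past the threshold are named (up to 6) and otherwise the 2 probe sets with the smallest limma p. Varying probe sets were named in addition after their values were seen. The 5 genes most like *MSTN* and *FBXO32* are given at the probe set of each with the largest SD.

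Alternatives were filters on SD or mean, renewed normalisation, other priors, array weights, a replicate block, Spearman correlation and leaving out single animals. The labels name no batch. Both actin control probe sets (3′ and 5′) and the GAPDH 3′ control were constant, so RNA quality could not be compared through them. The GAPDH 3′ minus 5′ difference reflects the 5′ probe set alone (SD 0.028 over the arrays). It was -0.01 ± 0.028 in outdoor/pasture-fed and -0.03 ± 0.027 in indoor/concentrate-fed muscle (SD, n = 7 each, exact permutation p = 0.195).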

Additional observations from a re-analysis of the deposited data

Results flagged for a closer look

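In 4 of the 26 sets of 7 values (13 varying member probe sets in 2 groups), 1 animal lay far from the others of its group by Dixon's criterion, which sets the gap to the nearest animal against the range of the group. For normally distributed values the criterion flags about 1 in 20 such sets. The share flagged among all varying probe sets was not computed, so the count is not read as a trait of the members. All 4 were indoor/concentrate-fed. Replicate 2 was lowest in *MSTN* on probe set 2 (5.93, with the next at 7.50) and highest in *BNIP3* on probe set 2 (11.06, with the next at 10.42). Replicate 3 was highest in *FBXO32* on probe set 1 (12.01, with the next at 10.96) and on probe set 2 (11.25, with the next at 10.08), which read the same gene and repeat each other.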

How the results depend on the processing

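The count of member probe sets past the threshold was 0 under every alternative, including the varying probe sets with single animals left out, an alternative chosen after seeing the data, and the count over the pathway lists was 0 as well. Of the 13 differences of members, 9 kept their sign throughout. The near-0 differences of *FBXO32* changed sign when single animals were left out (-0.077 to 0.199 on probe set 1 and -0.066 to 0.252 on probe set 2), as did *BNIP3* on probe set 3 (-0.095 to 0.040, and 0.015 with array weights) and *SESN1* on probe set 3 (-0.048 to 0.058). The smallest limma adjusted p of any member was 0.222 over the alternatives other than the varying probe sets with single animals left out. For those fits only the count past the threshold was kept. The median r of the FOXO target pairs lay between -0.02 and 0.16 with single animals left out, between -0.02 and 0.09 under the other alternatives, and at 0.11 without indoor/concentrate-fed replicates 3 and 5, chosen after seeing the data. The positive r of the third *SESN1* probe set with the other two (0.64 and 0.65) was 0.02 and -0.04 without the 2 animals farthest from the median, indoor/concentrate-fed replicates 4 and 5. No pairing of animals by replicate number was apparent, though such a check cannot exclude one. The 7 correlations of deviations between same-numbered animals lay between -0.18 and 0.24, and 2 of 7 outdoor animals correlated best with their own number. With the replicate block the counts stayed 0 and the median r was -0.02. Marker lists passing at an unadjusted exact p under 0.05 numbered 1, and 1 to 2 with single animals left out, since the satellite cell marker passed without outdoor/pasture-fed replicate 5 (p = 0.00991, exact permutation) or indoor/concentrate-fed replicate 4 (p = 0.0414, exact permutation) and the red blood cell list without outdoor/pasture-fed replicate 2 (p = 0.0344, exact permutation). The adipocyte (-0.17 to 0.12) and fibroblast (-0.17 to 0.10) list differences changed sign with single animals left out. Where signs changed, the cause was not tested.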

Other observations

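The r of *MSTN* with the muscle fibre list rested largely on indoor/concentrate-fed replicate 2, lowest in *MSTN*, without which it was -0.16 and -0.20. It was looked at by marker, a choice made after its value was seen. Within groups (n = 14), *MSTN* probe sets 1 and 2 had an r of -0.61 and -0.70 with *CKM*, the muscle creatine kinase, and of -0.55 and -0.62 with desmin (*DES*). Without that animal these were -0.29 and -0.23 for *CKM* and -0.31 and -0.30 for *DES*. With the slow myosin *MYH7* their r lay between -0.17 and 0.15. Of the 7 varying probe sets annotated to the fast myosin *MYH1*, 3 had a positive r of 0.42 to 0.48 with probe set 1 and of 0.54 to 0.61 with probe set 2, while the other 4 lay between -0.08 and 0.15. Without the same animal the 3 lay between 0.45 and 0.75, and 1 of the other 4 came to -0.51 and -0.70. Myosin heavy chain genes are near-identical in sequence, so which of them each probe set reads is uncertain. These values are a description without a test.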
